A study of Homo sapiens with 4 samples.

Results

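GATA2 occupancy was examined at 10 genes of the Notch pathway in K562 cells, an established human line of chronic myeloid leukaemia that expresses endogenous GATA2. The genes were the ligands JAG1, JAG2 and DLL1, the receptors NOTCH1, NOTCH2 and NOTCH3, the nuclear effectors RBPJ and MAML2, and the target genes HES1 and HEY1. A peak was counted for a gene if the nearest transcription start site (TSS) of any protein-coding gene in GENCODE release 44 was that of the gene, or if the peak lay within 50 kb of its annotated body. By this rule the 10 genes held 72 of the 31777 peaks of the asynchronous library and 3 of the 1648 peaks of the mitotic library. Of the 72, 32 met both criteria, 25 were only nearest to the TSS, and 15 only lay within 50 kb of the body.

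The peaks came from ChIP-seq with an antibody against GATA2, in which the DNA bound by the protein is pulled down and sequenced and a peak is an interval where reads accumulate. One library was made from unsynchronised cells, most of them in interphase, and 1 from cells arrested in mitosis with nocodazole, a drug that blocks the spindle. Both groups were unmodified K562 cells fixed first with disuccinimidyl glutarate and then with formaldehyde. The mitotic cells were sorted for MPM-2, a mitotic phospho-epitope, in several rounds that were pooled for 1 ChIP, and the labels note a small remainder of asynchronous cells in that pool. With 1 library per condition there was no replicate, so no difference between the conditions was tested, and 95% exact binomial intervals cover counting error over peaks only. Where 0 peaks of a gene were bookmarked, the limit given is not such an interval but 3 peaks divided by the number of its peaks, and it too covers counting error only. The deposited lists hold peak positions and no heights, so width is the only size of a peak, and the depth of the libraries is unknown here. Peak positions hold no expression, so the identity of the cells and the activity of the genes could not be checked against marker genes.

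Notch receptors are membrane proteins that are cut when a ligand of the Delta or Jagged family on a neighbouring cell binds them. The freed intracellular part enters the nucleus and joins the DNA-binding protein RBPJ (also called CSL) and a Mastermind coactivator such as MAML2 to switch on target genes, among them the transcriptional repressors HES1 and HEY1. In the embryo, Notch signalling is needed for the emergence of haematopoietic stem cells from arterial endothelium, where GATA2 also acts.

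The 3 mitotic peaks lay at JAG1 and HES1 (the proximal HES1 peak met both criteria, the others only that of the nearest TSS), and all of them fell wholly inside an asynchronous peak (an asynchronous peak is called bookmarked where it overlaps any mitotic peak by 1 base or more). With the 50 kb criterion alone, or with genes of every type competing for the nearest TSS, 1 mitotic peak was left, the proximal one at HES1, since the JAG1 peak was nearest to LINC02871 and the distal HES1 peak to LINC02026. The reference sequences of the 3 are shown because they are the sites at Notch genes at which GATA2 was detected in mitosis. Capitals mark the GATA consensus, which is AGATAA or AGATAG, or the same with T in place of the first A, called WGATAR and searched on both strands. The sequences are from the plus strand of hg38, and the distal HES1 peak is shown for 300 of its 312 bases.
JAG1, 450933 bp upstream, chr20:11124932-11125199: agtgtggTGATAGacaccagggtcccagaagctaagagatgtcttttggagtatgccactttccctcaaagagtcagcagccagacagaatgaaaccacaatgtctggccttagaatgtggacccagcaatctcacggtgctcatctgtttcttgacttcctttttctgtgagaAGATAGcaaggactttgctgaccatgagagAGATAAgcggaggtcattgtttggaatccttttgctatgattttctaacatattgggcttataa
HES1, 132659 bp upstream, chr3:194003183-194003482: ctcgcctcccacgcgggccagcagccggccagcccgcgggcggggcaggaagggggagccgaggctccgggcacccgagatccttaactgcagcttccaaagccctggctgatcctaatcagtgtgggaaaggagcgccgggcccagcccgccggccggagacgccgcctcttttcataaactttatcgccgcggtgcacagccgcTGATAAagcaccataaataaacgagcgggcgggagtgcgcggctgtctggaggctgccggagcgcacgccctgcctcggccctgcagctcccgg
HES1, 4607 bp downstream of the TSS, chr3:194140755-194140945: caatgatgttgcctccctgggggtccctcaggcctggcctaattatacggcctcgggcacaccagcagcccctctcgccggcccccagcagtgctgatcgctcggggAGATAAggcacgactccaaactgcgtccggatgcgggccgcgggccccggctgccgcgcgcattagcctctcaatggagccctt
The JAG1 site held 3 WGATAR matches in 268 bp, and each HES1 site held 1. The HES1 sites were rich in G and C, with 67.9% in the distal and 67.0% in the proximal mitotic peak, against 44.03% in the JAG1 peak and a median of 45.3% over all mitotic peaks. A WGATAR match was found in 95.6% of all mitotic peaks. The part that asynchronous cells left after the sort had in these peaks was not tested.

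Asynchronous GATA2 peaks were spread unevenly over the pathway. MAML2 had 26, HES1 15, HEY1 11, JAG1 and RBPJ 7 each, NOTCH2 3, and DLL1, NOTCH1 and NOTCH3 1 each, while none was listed for JAG2. The median over the 10 genes was 5 peaks, against 2 over all 20046 protein-coding genes counted in the same way. The rule favours long genes and genes with distant neighbours, and per 100 kb of the gene and 50 kb on each side the order was the opposite, with a median of 0.92 peaks for the members and 1.40 for all protein-coding genes. In that window the density of asynchronous peaks was 6.82 per 100 kb at HES1 and 5.57 at MAML2, higher than at 98.0% and 95.3% of protein-coding genes. It was 1.61 at RBPJ and 1.90 at HEY1, higher than at 54.0% and 61.5% of protein-coding genes, and 0.66 to 1.04 at DLL1 and the receptors. At JAG1 and JAG2 this window held no peak.

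Of the 72 asynchronous peaks at Notch genes, 3 were bookmarked, or 4.17% (0.868% to 11.7%), against 5.04% of all asynchronous peaks. The share was thus near the background, and the interval includes it. All 3 were at HES1 and JAG1, which the paper on these data had already named as bookmarked by GATA2. Because the members were chosen with earlier results of these data known, the share describes these genes and is no test. At least 1 mitotic peak was found for 2 of the 9 members with an asynchronous peak, or 22.2%, against 16.2% of all 15641 protein-coding genes with one. These 2 shares are not matched for the number of asynchronous peaks, whose median was 5 for the members and 2 for all protein-coding genes. A mitotic peak was found for 7.13% of genes with 1 to 3 asynchronous peaks and for 74.1% of those with 20 or more. The 22.2% is therefore not read as above the background. HES1 accounted for 2 of the 3 bookmarked peaks, and without it 1 of 57 was bookmarked, or 1.75%.

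Among the ligands, JAG1 (ENSG00000101384), which encodes Jagged 1, occupies 10637684 to 10673999 of chromosome 20 (minus strand). Its 7 asynchronous peaks were all upstream and outside the gene, with the closest at 112646 bp and the farthest at 450859 bp from the TSS. None lay within 50 kb of the gene, so all were assigned by the nearest TSS alone. The farthest, from 11124858 to 11125541, was the bookmarked one. At 684 bp it was wider than 90.2% of all asynchronous peaks, and its mitotic peak covered 39.2% of it. A 1060 bp peak 426805 bp upstream, wider than 98.9% of the list, did not overlap a mitotic peak. The other 5 JAG1 peaks measured 200 to 357 bp. The narrow peak from 10989371 to 10989708 held 9 WGATAR matches in 338 bp, the most of any Notch peak.

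JAG2 (ENSG00000184916), the gene of Jagged 2, on chromosome 14 from 105140982 to 105168824, had no peak in either list, and the mitotic peak closest to it lay 572856 bp away. DLL1 (ENSG00000198719), on chromosome 6 from 170282206 to 170306565, encodes Delta-like 1. Its single peak, at 170286786 to 170287002, was placed in canonical intron 4, but the nearest TSS was that of FAM120B. This 217 bp peak held no WGATAR match.

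The receptors had 5 asynchronous peaks between them, too few for the absence of a bookmarked one to be read. Of the 9141 protein-coding genes with 1 to 3 asynchronous peaks, 92.9% had no mitotic peak. NOTCH1 (ENSG00000148400), at 136494433 to 136546048 of chromosome 9 (minus strand), had 1 peak of 286 bp that lay 6344 bp upstream of its TSS and met both criteria. NOTCH2 (ENSG00000134250), on chromosome 1 from 119911553 to 120100779, had 1 peak of 410 bp in intron 29 of its canonical transcript that met both criteria, and 2 peaks of 255 and 333 bp downstream of the gene that were nearest to ADAM30 and met only the 50 kb criterion. NOTCH2 has near-identical partial copies in the genome (the NOTCH2NL genes). Only uniquely mapped reads were kept, and their effect on peaks in the copied part was not tested. NOTCH3 (ENSG00000074181), on chromosome 19 from 15159038 to 15200995, had 1 peak of 213 bp that lay 17608 bp upstream of the gene, was nearest to EPHX3, and also met only the 50 kb criterion. All 5 receptor peaks held a WGATAR match, and none was in the widest 10% of the asynchronous list, which begins at 681 bp. The mitotic peak closest to a receptor gene lay 268065 bp from NOTCH3.

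RBPJ (ENSG00000168214), the gene of the DNA-binding factor of the pathway, occupies 26163455 to 26435131 of chromosome 4 (plus strand). Of its 7 asynchronous peaks, 6 lay inside the annotated gene and met both criteria, and 1 lay 56638 bp upstream of it and was only nearest to its TSS. That upstream peak was the widest, with 919 bp, and the 6 others measured 320, 555, 501, 493, 237 and 478 bp in order along the gene. The first peak inside the gene, from 26163647 to 26163966, lay 117 bp from an annotated RBPJ TSS. A close group of 2 peaks, of 501 and 493 bp and 1241 bp apart, lay 11974 and 10240 bp upstream of the canonical TSS, and 2 more lay in intron 1 of the canonical transcript. Every RBPJ peak held at least 1 WGATAR match, 24 in all or 6.85 per kb. None was bookmarked, which with 7 peaks allows a share of up to 42.9% (3 of 7). Of the 2004 protein-coding genes with 6 to 8 asynchronous peaks, 69.3% had no mitotic peak, as RBPJ, and 30.7% had at least 1, as JAG1. The mitotic peak closest to RBPJ lay 347151 bp from the gene.

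MAML2 (ENSG00000184384), the gene of the coactivator Mastermind-like 2, occupies 95976598 to 96343195 of chromosome 11 (minus strand), or 367 kb. Only 42 of the 20046 protein-coding genes, MAML2 included, had at least as many asynchronous peaks as its 26. Inside the gene lay 20 of them, 18 in intron 1 and 2 in intron 2 of the canonical transcript, and 8 were within 40 kb downstream of the TSS. For 11 of the 26 another gene had the nearest TSS, MTMR2 for 10 and CCDC82 for 1, while the other 15 met both criteria. Widths ran from 180 to 883 bp with a median of 387 bp, and 4 peaks were in the widest 10% of the list. The widest, at 96322658 to 96323540, was in intron 1 and held 4 WGATAR matches. All but 2 of the MAML2 peaks held a WGATAR match, and the gene had 59 matches in all, or 5.44 per kb.

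No MAML2 peak was bookmarked, and 0 of 26 allows a share of up to 11.5% (3 of 26). The closest mitotic peak lay 242308 bp from the gene and was nearest to FAM76B. Of the 42 genes with at least 26 asynchronous peaks, 5 had no mitotic peak (11.9%), MAML2 included, and of the 116 genes with at least 20, 30 had none (25.9%). These strata were set after the values had been seen, and neighbouring genes in them share peaks.

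HES1 (ENSG00000114315), which encodes a basic helix-loop-helix repressor, is a short gene at 194136148 to 194138732 of chromosome 3 (plus strand). Of its 15 asynchronous peaks, 5 lay within 5 kb of the TSS, 6 lay 66088 to 214341 bp upstream and 4 lay 14117 to 65937 bp downstream. The 5 close peaks and those 14117 and 30662 bp downstream met both criteria, and the 8 others were only nearest to the TSS. One peak, from 194136027 to 194136335, covered the TSS. The peak next to it, from 194137120 to 194137600, lay inside the gene, and a peak from 194139184 to 194140257, which began 452 bp past the end of the gene, was at 1074 bp the widest of all Notch peaks. It held 5 WGATAR matches and was wider than 99.0% of the asynchronous list, but it was not bookmarked.

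The bookmarked proximal HES1 peak followed 427 bp further on, from 194140685 to 194140955. It was 271 bp wide, wider than 25.8% of the list, and its mitotic peak of 191 bp covered 70.5% of it. Among all 1528 asynchronous peaks within 10 bp of that width, 4 were bookmarked, or 0.262% (0.0714% to 0.669%), this one included. The width band was centred on this peak because it was the narrowest bookmarked one at a Notch gene. Its share thus describes the list and is no test. The distal bookmarked peak, from 194003058 to 194003831, was 774 bp wide, more than 94.2% of the list, and its mitotic peak covered 40.3% of it. The 12 HES1 peaks other than these and the 1074 bp peak measured 196 to 701 bp. The distal bookmarked peak lay alone, 48047 bp from the next asynchronous peak. Thus 1 of the 2 bookmarked HES1 sites was wide, like most bookmarked peaks, whose median width over the genome was 674 bp, and the other was narrow.

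**Figure D1:**
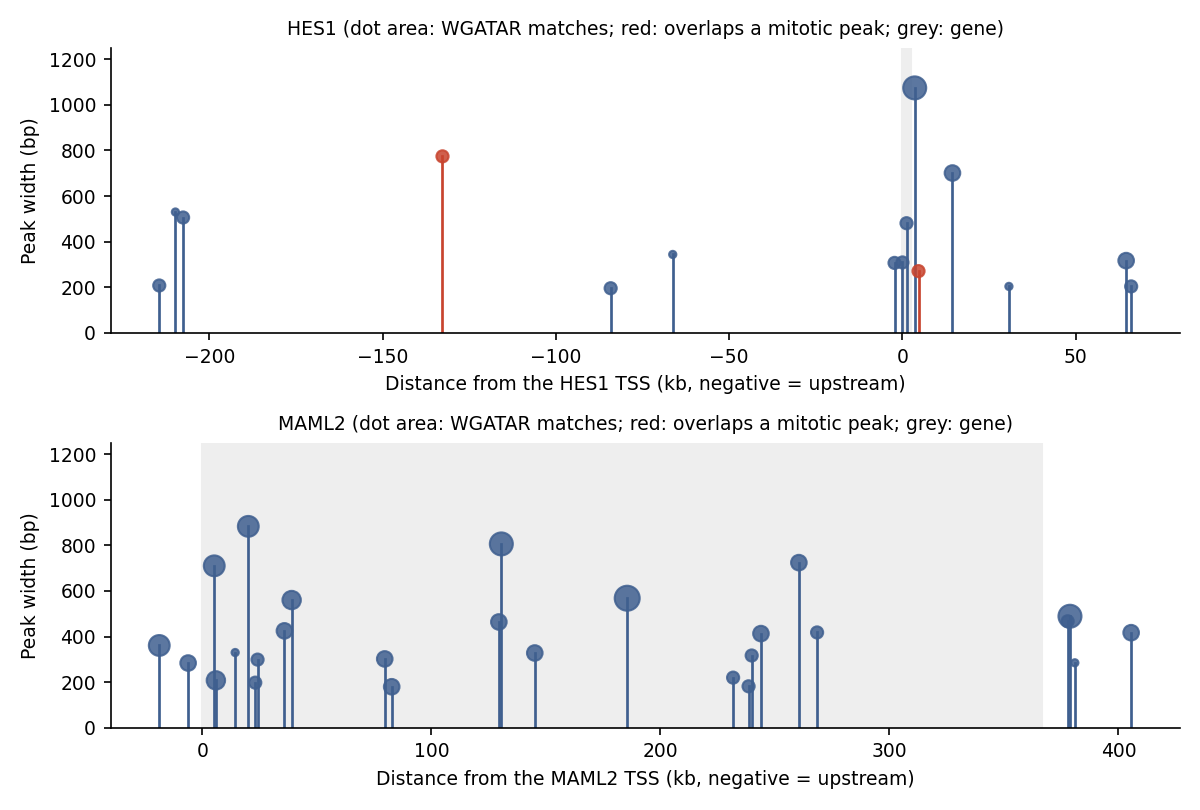
Width in bp of each asynchronous peak (stem height) against its distance in kb from the HES1 TSS (top) and the MAML2 TSS (bottom). Dot area grows with the number of WGATAR matches, red peaks overlap a mitotic peak, and the widest HES1 peak of 1074 bp stands beside the narrow bookmarked peak of 271 bp.

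Among protein-coding genes with 13 to 17 asynchronous peaks, 58.4% of 303 had a mitotic peak and 22.1% had 2 or more, as HES1 did. The same numbers as HES1 in both lists, 15 and 2, were found at 10 other genes. Of these, PLB1, SLC7A11 and BTN3A2 were closest to HES1 in the summed width of their asynchronous peaks, which differed from its 6426 bp by 21, 56 and 158 bp.

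HES1 was the only member whose RefSeq promoter window (250 bases before to 50 after a start, GRCh38.p14) touched a GATA2 peak. Windows were found for 8 of the 10 members, 12 in all, and 3.45% of all 35116 windows touched an asynchronous peak. The part of that peak upstream of the TSS is shown because it holds both strings TGGGAA, the core that RBPJ binds, in capitals on the plus strand.
HES1 promoter, chr3:194136027-194136147: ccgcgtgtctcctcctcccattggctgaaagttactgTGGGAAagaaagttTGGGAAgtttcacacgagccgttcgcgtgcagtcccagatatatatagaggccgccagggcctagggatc
The strings stood at 194136064 to 194136069 and 194136078 to 194136083. At least 1 TGGGAA on either strand was present in 24.0% of all promoter windows and 2 or more in 3.796%. An RBPJ window, from 26319496 to 26319795 of chromosome 4, also held 2 but touched no peak. The only WGATAR match of the HES1 promoter peak lay downstream of the TSS, from 194136170 to 194136175 in exon 1. No mitotic peak overlapped the promoter.

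HEY1 (ENSG00000164683), a repressor of the same family as HES1, occupies 79762371 to 79767857 of chromosome 8 (minus strand). Of its 11 asynchronous peaks, 10 were upstream and 1 lay 1240 bp beyond the end of the gene, and none was inside it. Of the upstream peaks, 4 lay close together from 79818512 to 79822566 and 3 from 79852717 to 79855114. In all, 7 of the 11 had the next peak within 1 kb. The peak beyond the end and the one 25914 bp upstream of the canonical TSS met both criteria, and the 9 others were only nearest to the TSS. Their widths ran from 272 to 851 bp, with a median of 438 bp. None was bookmarked, which allows a share of up to 27.3% (3 of 11), and the closest mitotic peak lay 6449696 bp away. Of the 948 genes with 9 to 13 asynchronous peaks, 58.8% had no mitotic peak.

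**Figure D2:**
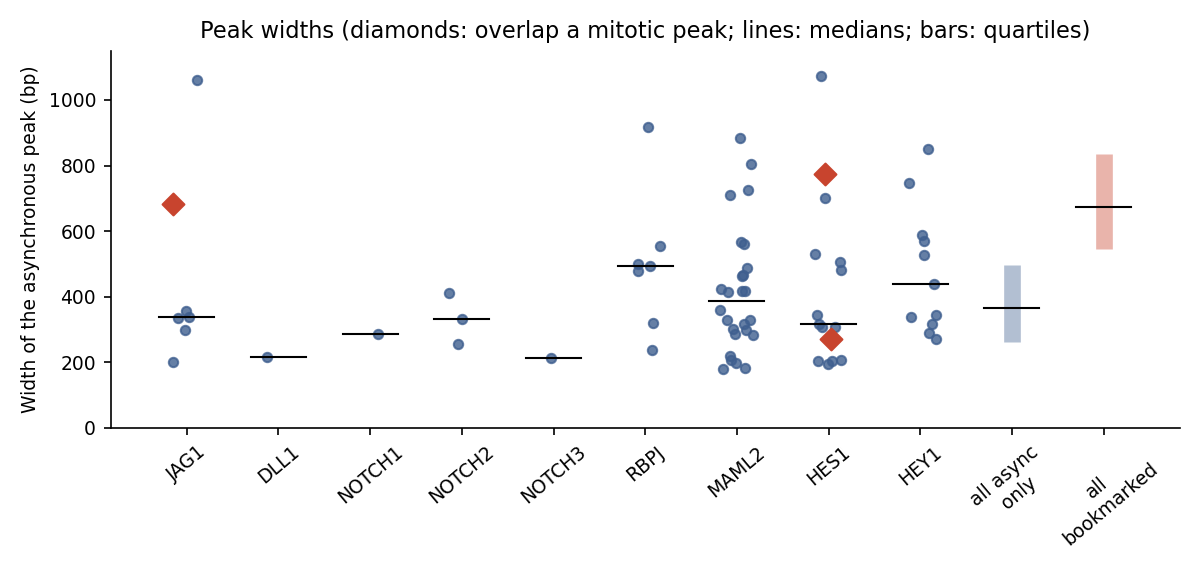
Width in bp of each asynchronous peak at the 9 members with a peak (points), with the median as a line and peaks that overlap a mitotic peak as diamonds. The last columns give the median and quartiles of all asynchronous-only and all bookmarked peaks of the genome, with medians of 367 and 674 bp.

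Over all members, the median of the 72 widths was 343.5 bp and the middle 50% ran from 285.75 to 527.75 bp, against 378 bp and 267 to 518 bp for the whole asynchronous list. In the widest 10% of the list were 12 of them, or 16.7% (8.92% to 27.3%), and 2 of those 12 were bookmarked, against 24.6% of all peaks of that width. A WGATAR match was present in 64 of 72, or 88.9% (79.3% to 95.1%), beside 93.0% of all asynchronous peaks. Per kb, the Notch peaks held 4.96 matches (4.21 to 5.81, exact Poisson) and all asynchronous peaks 5.995. HES1 peaks held the fewest of the members with more than 1 peak, 2.80 per kb, and the value without HES1 was 5.53. Of the 8 peaks without a match, 3 were at HES1, 2 at HEY1, 2 at MAML2 and 1 at DLL1.

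Few Notch peaks lay at promoters, and close neighbours were found at 3 of the genes. By peak midpoint, within 3 kb of a protein-coding TSS were 7 of 72, or 9.72% (4.00% to 19.0%), of which 3 were at RBPJ, 3 at HES1 and 1 at the CCDC82 end of the MAML2 window. The share over all asynchronous peaks was 20.5%. The nearest protein-coding TSS was a median of 51415.5 bp away, against 14223 bp over the whole list. The next peak was within 1 kb for 19 of 72, or 26.4% (16.7% to 38.1%), beside 12.7% of all asynchronous peaks. Of these 19, 8 were at MAML2, 7 at HEY1 and 4 at HES1, and the 6 other members with a peak had none. At JAG1 the median gap to the next peak was 41270 bp, against 8967 bp over the whole list. Close peaks of 1 gene share their surroundings, so these intervals are too narrow, and the distance to a TSS is in part set by the rule.

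For the strings of other factors below, the counting interval at Notch genes included the value of the whole list. TGGGAA was present in 27 of 72 peaks, or 37.5% (26.4% to 49.7%), beside 32.4% of all asynchronous peaks. The RUNX string AACCACA was in 8.33% (3.12% to 17.3%) beside 13.6%, the ETS string AGGAAGT in 19.4% (11.1% to 30.5%) beside 14.9%, and the AP-1 string (TGACTCA or TGAGTCA) in 20.8% (12.2% to 32.0%) beside 13.04%. TGGGAA and AGGAAGT cannot match the same GGAA, since the base before it differs. The GATA:E-box composite (CTG, then 8 bases of any kind, then GATAA), known to be bound by GATA and TAL1 together in erythroid cells, was in 7 of 72 peaks, or 9.72% (4.00% to 19.0%), beside 8.55%.

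MAML2 held 4 of the 7 composites, and NOTCH1, RBPJ and HES1 held 1 each. The fourth MAML2 composite, in the peak from 96349224 to 96349507, is not printed because its stretch of the same length overlaps an annotated UTR of CCDC82. The reference sequences of the 6 others are shown with 10 bases on each side, 5′ to 3′ on the strand of the composite because they are the sites where GATA and E-box letters stand together, and the distances are of peak midpoints. GATAA can be part of a WGATAR match. Capitals mark CTG and GATAA.
NOTCH1, upstream, chr9:136552469-136552504, minus strand: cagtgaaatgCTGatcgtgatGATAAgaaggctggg
RBPJ, inside the gene, chr4:26310447-26310482, plus strand: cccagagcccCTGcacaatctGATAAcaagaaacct
MAML2, 231753 bp downstream of the TSS, chr11:96111384-96111419, minus strand: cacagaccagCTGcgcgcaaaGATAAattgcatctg
MAML2, 39025 bp downstream of the TSS, chr11:96304153-96304188, minus strand: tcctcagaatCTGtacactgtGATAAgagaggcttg
MAML2, 23136 bp downstream of the TSS, chr11:96320053-96320088, plus strand: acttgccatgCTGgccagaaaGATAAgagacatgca
HES1, 14467 bp downstream of the TSS, chr3:194150527-194150562, plus strand: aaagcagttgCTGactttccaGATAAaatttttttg
At NOTCH1 the composite contained the only WGATAR match of the gene's only peak.

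The other genes of the pathway were taken from a list of 48. At least 1 asynchronous peak was found for 40 of the 48, or 83.3%, beside 78.0% of all protein-coding genes. At least 1 mitotic peak was found for 7, which is 17.5% of the 40 beside the 16.2% of all protein-coding genes with an asynchronous peak. By role, a mitotic peak was found for 3 of 14 genes of cleavage and glycosylation (PSEN2, FURIN and POFUT1) and 1 of 12 of trafficking and turnover (MIB1). It was found for 3 of 10 of the nuclear complex (MAML3, KAT2B and SPEN), and for none of the 12 further ligands, receptor and targets. Of those last 12 genes, 10 had an asynchronous peak, beside 78.0% of all protein-coding genes. A mitotic peak was found for 12.7% of all 20046 protein-coding genes. Among genes with an asynchronous peak, the counts for the first 3 roles were 3 of 12, 1 of 9 and 3 of 9.

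Only at PSEN2, a catalytic subunit of the γ-secretase that frees the intracellular part of Notch, and at MIB1, a ubiquitin ligase that acts on the ligands, was the gene itself nearest to its mitotic peak. At PSEN2 the peak lay 65083 bp upstream of the gene. At MIB1 it lay in intron 1, 14307 bp from the nearest TSS, and held 3 WGATAR matches in 189 bp. The mitotic peaks within 50 kb of the 5 other genes were nearest to other genes, such as MAN2A2 for FURIN, which encodes the protease that cuts Notch in the Golgi. The most asynchronous peaks in the list were at MAML3 (31), FBXW7 (14) and KAT2B (11). MAML3, a Mastermind coactivator like MAML2, had 2 mitotic peaks, 1 in intron 2 and 1 downstream of the gene. FBXW7, whose protein marks the intracellular part of Notch for degradation, had none.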

How the data were processed

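GATA2 ChIP-seq of asynchronous and mitotic K562 cells was used, with 1 library each. The 2 input libraries were not used here. Per the submitters' processing notes and the methods, the authors mapped reads to hg38 with BWA 0.7.12, kept those that mapped uniquely and extended them, determined peaks with MACS2 2.1.0 and Genrich 0.6.1 and dropped those on the ENCODE blacklist. The deposited values are peak positions in bp, with no score, and the thresholds, and how the 2 callers were combined, are not given in the sources used here. Coordinates are hg38, with the first base as 1. Peaks were assigned with GENCODE release 44 by the edge of the peak and placed at promoters by its midpoint, and an overlap of 1 base sufficed for a bookmarked peak. Strings were matched without overlap in the reference sequence. Other assignment rules, overlaps, strings and width limits were tried as alternatives. The steps were tested on simulated data. No test between conditions was made. The members and gene lists were chosen with earlier results of these data known. The genes named are the members, genes of a wider list of 48 pathway genes with a mitotic peak or among its 3 with most asynchronous peaks, and the 3 most like HES1 in peak number and summed width. Sequences were read with pysam 0.24.0, tables handled in Python 3.11.15 with pandas 2.3.3 and numpy 2.4.6, intervals computed with scipy 1.17.1 and plots drawn with matplotlib 3.10.9.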

Additional observations from a re-analysis of the deposited data

How the results depend on the processing

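The count of 72 asynchronous peaks fell to 47 with the 50 kb criterion alone, to 47 when genes of every type competed for the nearest TSS, to 36 within 10 kb of the gene, to 46 without MAML2 and to 33 at or above the median width. With the same 3 changes of assignment (50 kb alone, every gene type, 10 kb), 1 mitotic peak at 1 member, HES1, was left. With reciprocal overlap of at least 50%, 1 member had a bookmarked peak. The bookmarked share was 4.17% and ran from 1.39% with that overlap (2.02% of all peaks) to 6.52% without MAML2, inside its counting interval under every alternative tried. At or above the median width the bookmarked share was 6.06% (2 of 33 peaks), below the 9.65% of all peaks of that width. AGATAA in place of WGATAR gave 63.9% of peaks (70.0% of all) and 2.26 matches per kb (2.64 over all), and the central 200 bp gave 7.08 per kb (8.08 over all). The TGGGAA share was 51.5% at or above the median width (17 of 33 peaks, 42.4% of all of that width) and 18.1% in the central 200 bp (17.8% of all), and TGTGGGAA was in 4.17% (3.24% of all). Promoters of 1 kb held the midpoints of 2.78% of the peaks (10.2% of all), and 3 peaks reached that close by their edge. Of the wider list, 2 genes had a mitotic peak by the nearest TSS alone, and 2 within 10 kb, in place of 7. The share of all protein-coding genes under these changes of assignment and overlap is not given here. The lower gene counts, for members and for the wider list, thus have no background beside them. Both values without HES1, the bookmarked share and the 5.53 WGATAR matches per kb, were chosen after seeing the data. The other 24 of the 45 alternatives stayed within counting error or 1.5 times the main count. Without depth or heights, absence of a peak is only absence of a call. No paired analysis was possible because each condition has 1 library.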

Other observations

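The 25 peaks that were assigned by the nearest protein-coding TSS alone all had the TSS of another annotated gene closer to them, a long noncoding RNA for 23 and a processed pseudogene for 2. At HEY1, 9 of the 11 peaks were nearest to the noncoding gene ENSG00000249328. The bookmarked peak assigned to JAG1 was nearest to LINC02871, as were 2 further JAG1 peaks, and the distal bookmarked HES1 peak was nearest to LINC02026. The proximal bookmarked HES1 peak was nearest to HES1 among genes of every type.

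The longer RBPJ string TGTGGGAA was present in 3 of the 72 Notch peaks, beside 3.24% of all asynchronous peaks. All 3 were at HES1, namely the peak at the TSS, the 1074 bp peak past the end of the gene and the distal bookmarked peak. In the mitotic peak of the last, the TGGGAA within it stood at 194003307 to 194003312, upstream of the TGATAA at 194003389 to 194003394. This grouping was noticed after the values had been seen and was not tested.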
